A study of Homo sapiens with 5 samples.

Results

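The genes described here are 56 regulators of embryonic patterning from the PAX, LHX, SIX2 to SIX6, DLX, IRX, NKX, EMX, OTX, OTP, MSX, ISL, EN and GSX families. They were chosen by name from the 19970 protein-coding genes of chromosomes 1 to 22 and X, and they lie outside the HOX clusters. Earlier results of these data were known when they were chosen. For each gene a window was taken that spans the gene body and 5 kb on either side. The signal is trimethylation of histone H3 at lysine 9 (H3K9me3), mapped by ChIP-seq, which sequences the DNA recovered with an antibody to the mark. The cells were HEK293T, a line derived from human embryonic kidney that carries the SV40 large T antigen. The study lists 5 samples: 1 H3K9me3 library of WT, 1 of EV and 1 of KD, and 1 input library of WT and 1 of EV. KD has no input library among them, and the control used to call its peaks is not stated. The label EV is taken to mean cells with an empty vector, and KD means cells with a knockdown that the design names KCNQ1OT1_K, which points to the long non-coding RNA KCNQ1OT1. The sources used here do not explain the suffix, the knockdown method or whether a line is 1 clone. No file used here measures RNA, so neither the loss of the target nor the identity of the cells was checked.

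The data are 3 lists of broad peaks, 24509 in EV, 12585 in KD and 14307 in a list whose name carries no genotype, on chromosomes 1 to 22 and X. The last was not assigned to any group and its values stand apart at the end. Each group has 1 library, so nothing here has a replicate check, and conditions were not tested against each other. Shares carry exact Clopper-Pearson 95% intervals, which cover counting error over genes or peaks only. Read depth is unknown, and the number of peaks called depends on it. The fold enrichment and the −log10 p of a peak are the authors' own values and describe a peak within its list.

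Homeobox genes encode transcription factors that bind DNA through a homeodomain and assign identity to cells along the body, in the brain and in forming organs. PAX proteins bind through a paired domain, and some of them, such as PAX1 and PAX9, have no homeodomain. In cells that do not use them, such genes are mostly silenced by Polycomb complexes and H3K27me3, whereas H3K9me3 is best known from repeats, pericentromeric sequence and zinc finger gene clusters. H3K9me3 is placed by methyltransferases such as SETDB1 and SUV39H1 and is read by HP1 proteins.

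H3K9me3 peaks lay at IRX, OTX, NKX, SIX2 to SIX6 and PAX genes in both lists, and most of the members marked in EV were also marked in KD. A peak lay in the window of 24 of the 56 members in EV (42.9%, interval 29.7 to 56.8), against 29.8% of all protein-coding genes. In KD it was 21 members (37.5%, interval 24.9 to 51.5), against 13.8% of all protein-coding genes. Both lists had a peak at 18 members (32.1%), against 11.9% of all genes. EV alone had one at 6 members (10.7%), against a background of 18.0%, and KD alone at 3 members (5.36%), against 1.87%. The remaining 29 members had no peak in the window of any list. Among members with an EV peak, 75.0% also had a KD peak (18 of 24, interval 53.3 to 90.2), and among all protein-coding genes with an EV peak 39.8% did (2374 of 5960).

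The members are short genes, with a median body of 6858 bp against 24190 bp over all protein-coding genes, and a shorter window has less room for a peak. Of the 44 members with a body under 20 kb, 20 had an EV peak (45.5%) and 18 a KD peak (40.9%). The background among the 8980 protein-coding genes under 20 kb was 15.6% in EV and 8.23% in KD. The covered share of the gene body gave the following counts. Peaks covered at least 10% of the body of 15 members in EV (26.8%, interval 15.8 to 40.3), against 2.76% of all protein-coding genes. In KD 12 members reached this share (21.4%, interval 11.6 to 34.4), against 1.55%. Of these, 9 members (16.1%) reached it in both lists, against 1.15%. All of these members have a body under 20 kb, where the background was 4.48% in EV and 3.23% in KD. The covered share of the body was higher in EV for 15 members and higher in KD for 11, against 22.9% and 3.17% of all protein-coding genes. As percentages of the members, these are 26.8% and 19.6%.

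**Figure D1:**
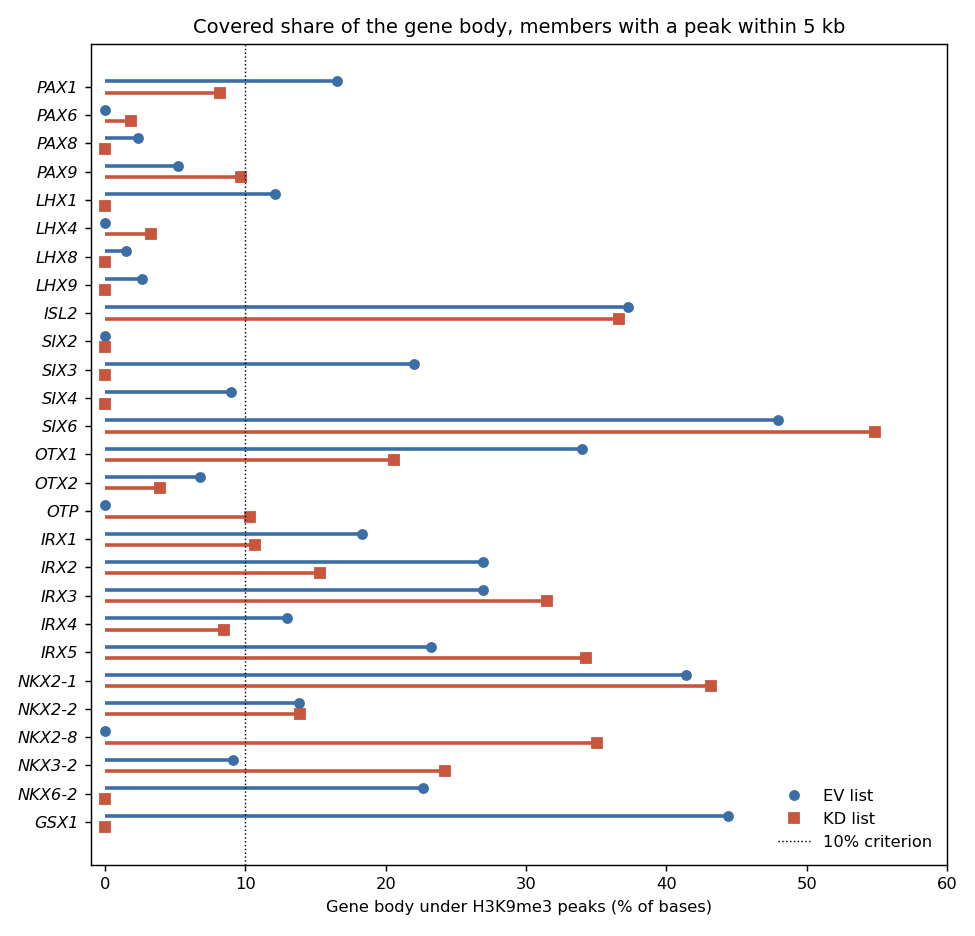
Share of each gene body that lay under H3K9me3 peaks, in percent of bases, for the 27 members with an EV or KD peak in the window. Circles are the EV list, squares the KD list (1 library each, so no error bars), and the dotted line marks the 10% criterion. SIX6 and NKX2-1 lie above 40% in both lists, GSX1 and SIX3 have EV values only, and NKX2-8 and OTP have KD values only.

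Marked members were unevenly spread over the families, a spread that was not tested. Of the 6 IRX genes 5 had a peak in both lists, and both OTX genes did. Of the 9 NKX genes 4 had an EV peak and 5 a KD peak, and of SIX2 to SIX6 4 and 3. Of the 9 PAX genes 3 had an EV peak and 3 a KD peak, with 2 in common. LHX genes had 3 and 1 of 8, with no gene in common, where 11.9% of all protein-coding genes had a peak in both lists. None of the 6 DLX genes, which act in limb, jaw and forebrain interneuron development, had a peak in any list. Nor had the MSX genes of craniofacial development, the EMX genes of the cerebral cortex or the EN genes of the midbrain and hindbrain, with 2 members each. The genes of these families all have a body under 20 kb, and 81.7% of all protein-coding genes of that size had no peak in any list. The windows of DLX1 and DLX2 overlap, as do those of DLX5 and DLX6. From the bodies of the 29 members without a peak, the nearest EV peak lay at a median of 78489 bp, from 5248 bp for SIX5 to 873009 bp for PAX7. The nearest KD peak lay at a median of 310660 bp, from 8680 bp for NKX6-1 to 963092 bp for ISL1, in a list with fewer peaks.

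Few of the member peaks lay over a transcription start, but a larger share of the member promoters was touched by a peak than of all promoters. RefSeq promoters (GRCh38.p14), spanning 250 bases before to 50 after a start, were listed for 40 of the 56 members, and 29 EV peaks and 29 KD peaks lay in the windows of those genes. A listed promoter was touched by 4 of these EV peaks and 4 of these KD peaks. By midpoint, 17 EV peaks lay in the gene body, 7 upstream and 5 downstream, and in KD the numbers were 19, 5 and 5. These splits of peaks were not computed for all genes. Of the 62 promoters listed for the members, 6.45% were touched by an EV peak and 6.45% by a KD peak. Over all listed promoters of protein-coding genes the shares were 1.69% and 1.15%, and the difference was not tested. The 6 promoters that a peak touched, out of 62 listed for the members, are given as the 250 bases before the start, read 5′ to 3′ on the strand of the gene, with every CG dinucleotide in capitals. CG is the site of DNA methylation in mammals, and promoters of developmental regulators are often rich in it. The promoters of NKX2-2 (chr20:21512961-21513210, minus strand) and PAX9 (chr14:36657318-36657567, plus strand) lay fully under a peak in EV and KD. Those of OTP (chr5:77638714-77638963, minus strand) and IRX2 (chr5:2751678-2751927, minus strand) were touched by an EV peak only. Those of PAX6 (chr11:31805042-31805291, minus strand) and SIX6 (chr14:60508896-60509145, plus strand) were touched by a KD peak only. The peaks at OTP and PAX6 reached only the outer end of the stretch shown, and the KD peak at SIX6 only the end next to the start. For NKX2-2 and PAX6 the start shown lies inside the gene body and is not the outermost one listed.
NKX2-2: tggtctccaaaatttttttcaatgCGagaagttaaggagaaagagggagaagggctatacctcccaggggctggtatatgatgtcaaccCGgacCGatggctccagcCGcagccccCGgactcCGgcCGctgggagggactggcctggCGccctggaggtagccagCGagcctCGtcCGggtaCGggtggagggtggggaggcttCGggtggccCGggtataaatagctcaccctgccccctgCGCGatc
PAX9: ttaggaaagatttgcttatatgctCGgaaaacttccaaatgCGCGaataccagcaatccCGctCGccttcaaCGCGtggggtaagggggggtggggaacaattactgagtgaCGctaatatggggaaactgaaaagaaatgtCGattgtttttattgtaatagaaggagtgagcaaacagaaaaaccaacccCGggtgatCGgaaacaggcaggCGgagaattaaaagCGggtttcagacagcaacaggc
OTP: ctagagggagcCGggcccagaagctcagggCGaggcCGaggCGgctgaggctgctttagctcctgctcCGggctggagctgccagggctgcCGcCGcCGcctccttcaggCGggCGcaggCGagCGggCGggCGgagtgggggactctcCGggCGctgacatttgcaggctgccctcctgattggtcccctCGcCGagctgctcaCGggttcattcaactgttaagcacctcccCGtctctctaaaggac
IRX2: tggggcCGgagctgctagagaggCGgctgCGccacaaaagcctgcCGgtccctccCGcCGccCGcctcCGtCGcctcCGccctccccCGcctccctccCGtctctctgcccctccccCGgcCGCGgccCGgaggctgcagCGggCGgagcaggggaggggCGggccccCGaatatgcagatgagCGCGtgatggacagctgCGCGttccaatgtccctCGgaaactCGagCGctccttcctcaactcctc
PAX6: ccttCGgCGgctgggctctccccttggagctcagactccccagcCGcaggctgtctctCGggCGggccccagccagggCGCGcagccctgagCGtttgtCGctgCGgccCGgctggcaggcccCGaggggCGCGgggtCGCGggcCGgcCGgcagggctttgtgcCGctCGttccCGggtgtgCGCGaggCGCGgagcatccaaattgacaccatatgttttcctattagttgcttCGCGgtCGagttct
SIX6: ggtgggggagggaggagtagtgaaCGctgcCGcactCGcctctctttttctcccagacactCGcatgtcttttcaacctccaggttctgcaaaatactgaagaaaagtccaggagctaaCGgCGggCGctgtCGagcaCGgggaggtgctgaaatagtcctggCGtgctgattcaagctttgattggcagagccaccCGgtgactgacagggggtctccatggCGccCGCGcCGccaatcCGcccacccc

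These stretches range from 13 CG and 46.8% GC in PAX9 to 28 CG in PAX6 and 72.8% GC in IRX2. The homeodomain core TAATTA is in none of them, and the GC box GGGCGG, searched on both strands, is in those of OTP, IRX2, PAX6 and SIX6. Over the full 300 bases, the outermost promoter of the 40 members held a median of 24 CG and 64.8% GC, against 22 CG and 62.7% over 15711 protein-coding genes. GGGCGG was present in 25 of the 40 (62.5%) and in 58.3% of all outermost promoters, and TAATTA in 2 of the 40, those of EMX2 and MSX2, and in 3.37% of all. An EV peak touched the outermost promoter of 3 of the 40 members (OTP, IRX2 and PAX9) and 1.73% of all, and a KD peak that of 2 (PAX9 and SIX6) and 1.23% of all.

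**Figure D2:**
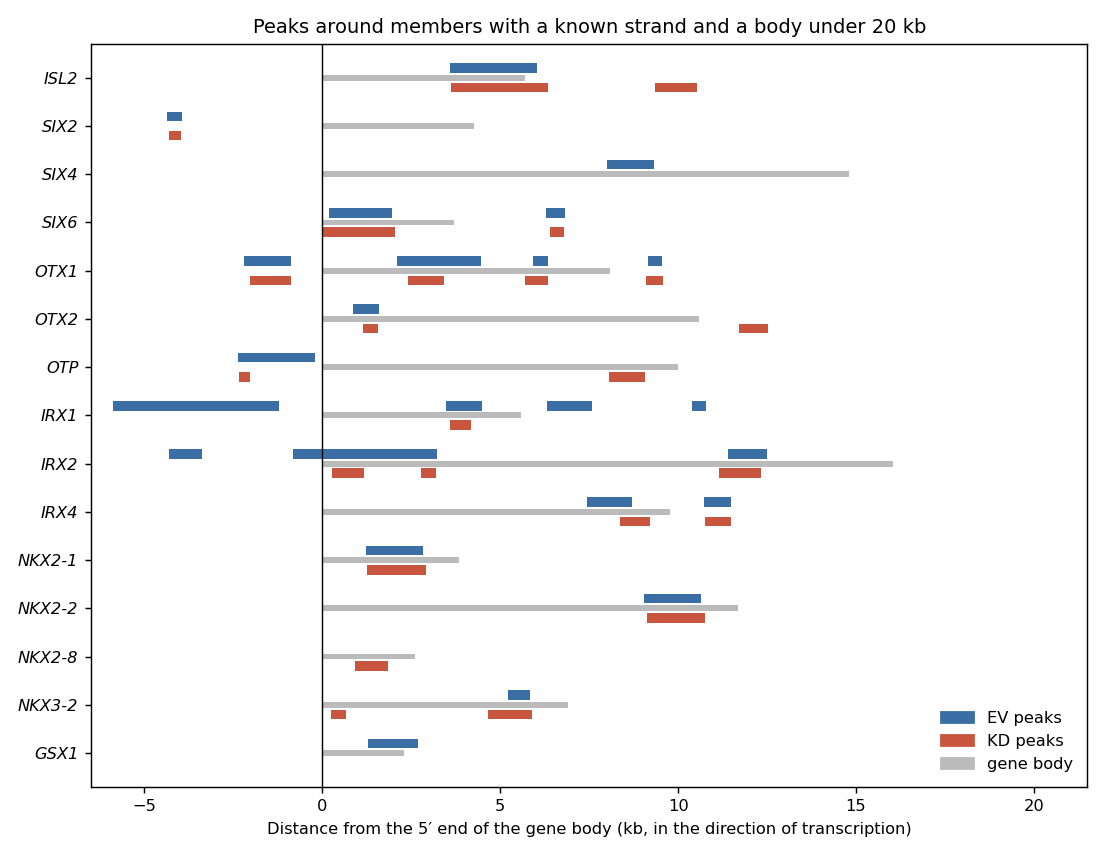
Peaks along the 15 members with an EV or KD peak, a listed promoter and a body under 20 kb. The horizontal axis gives the distance in kb from the 5′ end of the gene body, in the direction of transcription. Grey bars are gene bodies, bars above them EV peaks and bars below them KD peaks. Across OTX1, IRX4, NKX2-1 and NKX2-2, every EV peak has a KD peak beneath it, mostly within or beyond the gene body and not at the 5′ end.

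Among the PAX genes, PAX1 and PAX9, which act in the vertebral column, pharyngeal pouches and teeth, were marked in both lists. PAX1 had 2 EV peaks that covered 16.6% of its body, and 1 KD peak that covered 8.18%. The stronger EV peak, chr20:21704878-21707016, had a −log10 p of 4.99 and a fold enrichment of 3.20, and the KD peak, chr20:21705792-21706839, lay inside it with 4.47 and 3.72. PAX9 had a peak across its 5′ end in both lists, the EV one 2646 bp wide with a −log10 p of 3.70 and the KD one 3707 bp wide with 5.11. This peak also touches a non-coding gene, LOC105370455. A second KD peak of 845 bp lay 8698 bp into PAX9, where EV had none, so that 5.18% of the body was covered in EV and 9.70% in KD. PAX6, the master regulator of eye development, had 2 KD peaks, of 538 and 295 bp, and no EV peak. PAX8, which acts in thyroid and kidney, had a single EV peak of 1469 bp that began 401 bp from its 5′ end. PAX2, a kidney regulator, and PAX3, PAX4, PAX5 and PAX7, of the neural crest, endocrine pancreas, B cells and muscle stem cells, had no peak.

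The LIM homeobox family holds the LHX genes, where no gene was marked in both lists, and the ISL genes. LHX1, needed for head and kidney formation, had an EV peak of 949 bp over 12.1% of its body and no KD peak. LHX8 and LHX9, of forebrain cholinergic neurons and the gonad, had 1 and 2 EV peaks, over 1.49% and 2.63% of the body, and no KD peak. LHX4, a pituitary regulator, had a KD peak of 1652 bp and no EV peak. These peaks had a −log10 p from 3.22 to 4.25, each below the median over all protein-coding genes in its list, 4.39 in EV and 4.85 in KD. ISL2, a motor neuron factor, was marked in both lists, with 37.2% of the body covered in EV and 36.6% in KD. Its EV peak, chr15:76340352-76342806, and its KD peak, chr15:76340387-76343120, cover the 3′ part of the gene and also touch LOC124903532. A further KD peak, 3641 bp beyond the gene, had the highest −log10 p of any KD peak in the member windows, 8.81, and EV had none there. ISL1, of cardiac progenitors and motor neurons, had none.

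SIX6, which acts in eye and pituitary development, had the largest covered share of any member in either list. Peaks covered 48.0% of its body in EV and 54.9% in KD. The EV peak, chr14:60509337-60511114, had a −log10 p of 3.60 and a fold enrichment of 2.90, and the KD peak, chr14:60509135-60511179, had 5.41 and 4.29. A second pair lay 2575 bp beyond the gene in EV and 2687 bp in KD, with a −log10 p of 8.04 and 7.62, and all 4 peaks touch C14orf39 as well. SIX2, a factor of nephron progenitors, had no peak in its body in either list. Its window held an EV peak of 423 bp and a KD peak of 344 bp upstream, 3948 and 3959 bp from the gene. SIX3, of forebrain and eye, had an EV peak over 22.04% of its body, whereas its KD peak lay 2934 bp outside it and did not overlap the EV peak. SIX4 had an EV peak of 1333 bp with a −log10 p of 5.72, the highest of the EV peaks here without a KD partner, and no KD peak. SIX5 had none, and its nearest EV peak lay 5248 bp from the body, the closest to the 5 kb limit from outside. The farthest peak counted was an EV peak at 4820 bp from IRX1.

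OTX1, a forebrain regulator, was the only member with 4 peaks in both lists, and each EV peak there was overlapped by a KD peak. They covered 34.0% of its body in EV and 20.6% in KD. The one upstream, chr2:63047547-63048843 in EV, had a −log10 p of 6.31 in EV and 5.17 in KD, and it also touches EHBP1-AS1. In OTX2, the EV peak of 716 bp and the KD peak of 412 bp overlapped near the 5′ end of the body, with a −log10 p of 6.67 and 6.07, and KD had a second peak beyond the 3′ end. OTP, of the hypothalamus, carried the strongest EV peak of all member windows, chr5:77638913-77641070, upstream of the gene, with a −log10 p of 10.6 and a fold enrichment of 5.87. At this place KD had a peak of 312 bp, against 2158 bp in EV. A KD peak of 1031 bp lay inside OTP, where EV had none, over 10.3% of the body.

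The Iroquois genes IRX1, IRX2 and IRX4 form a cluster on chromosome 5 and IRX3, IRX5 and IRX6 one on chromosome 16, with roles in heart, limb and neural patterning. On chromosome 5 the covered share was lower in KD. It was 18.3% in EV and 10.7% in KD for IRX1, 26.9% and 15.3% for IRX2, and 13.0% and 8.47% for IRX4. IRX1 had 4 EV peaks over 6267 bp of its window and 1 KD peak over 594 bp, and the upstream EV peak, 4677 bp wide, had no KD partner. In IRX2 an EV peak of 4047 bp, chr5:2748442-2752488, spanned the 5′ end. There KD had 2 separate peaks of 418 and 875 bp within it. On chromosome 16 the share was higher in KD, with 27.0% in EV and 31.5% in KD for IRX3, and 23.3% and 34.3% for IRX5. Each of these had a single EV peak overlapped by a single KD peak, chr16:54284020-54284958 in EV for IRX3 and chr16:54932739-54933580 for IRX5. IRX6, 389.7 kb from IRX5, had no peak. Whether the clusters differ was not tested.

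The NKX windows had more covered bases in KD, 6235 bp, than in EV, 4509 bp, as the ISL windows also did. NKX2-1, of thyroid, lung and ventral forebrain, had 41.4% of its body covered in EV and 43.2% in KD. Its peaks, chr14:36517413-36519001 in EV and chr14:36517310-36518965 in KD, had nearly the same ends and also touch SFTA3. NKX2-2, of the ventral neural tube and pancreas, had 13.8% and 13.9%, with peaks of 1615 and 1624 bp. NKX2-8, which lies 59.8 kb from NKX2-1 and 75.0 kb from PAX9, had no EV peak and a KD peak over 35.0% of its body. That peak, chr14:36580776-36581690, had a −log10 p of 7.15 and a fold enrichment of 4.68. NKX3-2, a factor of sclerotome and cartilage, had 9.14% in EV and 24.2% in KD, from 1 and 2 peaks. NKX6-2, of oligodendrocytes, had an EV peak over 22.7% of its body, and a KD peak 341 bp outside it that did not overlap the first. NKX2-3, NKX2-5, the cardiac regulator, NKX6-1 and NKX6-3 had none. GSX1, of the ventral forebrain, had an EV peak over 44.4% of its body, with a −log10 p of 5.01, and no KD peak, and GSX2 had none.

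EV peaks at ISL2, SIX6, NKX2-1, NKX2-2 and other members were overlapped by KD peaks. The member windows held 36 EV peaks and 34 KD peaks, and 22 of the EV peaks were overlapped by a KD peak (61.1%, interval 43.5 to 76.9). For all EV peaks within 5 kb of protein-coding genes the share was 28.0% (2508 of 8962, interval 27.1 to 28.9), and for those of genes under 20 kb it was 37.8% (531 of 1405). Peaks of a gene share their surroundings, so the 36 are not independent, and the difference from other genes was not tested. The median −log10 p of the member peaks was 4.36 against 4.39 for all such EV peaks, and their median width was 1039 bp against 920.5 bp. Among EV peaks with a −log10 p below 4, 8 of 13 at members were overlapped by KD (61.5%, interval 31.6 to 86.1), against 7.22% at all protein-coding genes (257 of 3558) and 14.1% at those under 20 kb (66 of 469). The 8 lay at PAX9, SIX2, SIX6, OTX1, IRX2, IRX4, NKX2-2 and NKX3-2. At a −log10 p of 6 or more, 6 of 6 were overlapped, against 63.9% at all genes and 66.1% at those under 20 kb. From 4 to 5 it was 6 of 12 at members (50%, interval 21.1 to 78.9) and 17.9% at all genes. At genes under 20 kb it was 30.4%, which lies within the members' interval. From 5 to 6 it was 2 of 5 at members (40%, interval 5.27 to 85.3), 31.8% at all genes and 46.2% at those under 20 kb. The members' interval includes both backgrounds. The contrast with other genes varied with the cut on peak strength. With a −log10 q of at least 2 in both lists, 12 of 22 member peaks were overlapped (54.5%, interval 32.2 to 75.6). At all genes it was 29.2%, below that interval. With EV limited to its strongest 12585 peaks by −log10 p, the size of the KD list, 11 of 17 member peaks were overlapped (64.7%, interval 38.3 to 85.8), against 49.8% at all genes, which lies within the interval. With a fold enrichment of at least 3 in both lists it was 10 of 17 (58.8%, interval 32.9 to 81.6), against 34.2%, again within the interval.

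**Figure D3:**
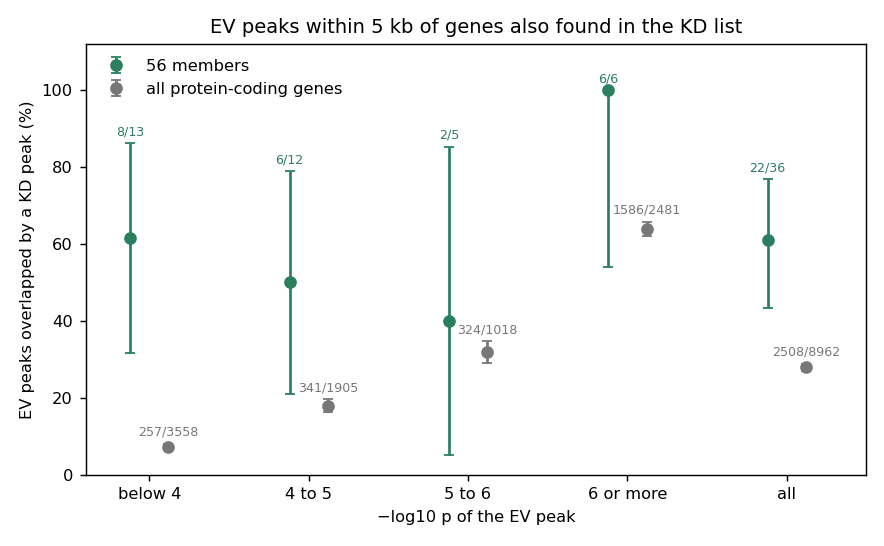
Share of EV peaks overlapped by a KD peak, in percent, by the −log10 p of the EV peak, for the member windows and for the windows of all protein-coding genes. Bars are exact 95% intervals over peaks and the numbers give overlapped peaks over all peaks. Below a −log10 p of 4 the share is 61.5% at the members and 7.22% at all genes.

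Where EV and KD peaks met at a member, they mostly covered the same bases. There were 23 such pairs at 16 genes, and in 17 of them at least 50% of both peaks was shared. The lowest shared parts of an EV peak were 10.3% in IRX2 and 14.5% in OTP. Pairs at other genes were not measured, so there is no background for this count. The KD peak was the wider one in 11 pairs and the EV peak in 12, with a median KD/EV width of 0.939. In the other direction, 23 of the 34 KD peaks were overlapped by EV (67.6%, interval 49.5 to 82.6), against 78.9% for KD peaks of all protein-coding genes, which lies within that interval. With the EV list limited in the same way it was 12 of 34 (35.3%, interval 19.7 to 53.5), against 63.9%, and with a fold enrichment of at least 3 it was 11 of 33 (33.3%, interval 18.0 to 51.8), against 57.1%, both above the members' interval. KD peaks at members without an EV partner, 11 in all, included those of NKX2-8, ISL2 and PAX6.

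The covered length of the member windows was 47004 bp in EV and 34225 bp in KD, or 0.728 times as much in KD as in EV, against 0.298 for the windows of all protein-coding genes and 0.448 for those under 20 kb. The direction for the members depended on how many EV peaks were admitted. With EV limited to its strongest 12585 peaks, the ratio was 1.44 for the members and 0.554 for all protein-coding genes. At this limit 13 of the 56 members had an EV peak, against 17.2% of all protein-coding genes, and 21 had a KD peak, against 13.8%. With a fold enrichment of at least 3 in both lists the ratio was 1.31 for the members and 0.447 for all. Whether the members carry more or less H3K9me3 in KD therefore cannot be read from these lists.

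The same values were taken for other developmental regulators. Of 68 other homeobox genes, such as the TLX, PITX and PHOX genes, 34 had an EV peak in the window and 20 a KD peak, and 8 and 9 had at least 10% of the body covered. Their EV peaks were overlapped by KD in 42.5% of cases (17 of 40, interval 27.0 to 59.1), and KD covered 0.692 times the length that EV did. Of their EV peaks with a −log10 p below 4, 8 of 19 were overlapped (42.1%, interval 20.3 to 66.5), against 8 of 13 at the members. Of the 39 HOX genes 8 had an EV peak (20.5%, below the 29.8% of all protein-coding genes) and 7 a KD peak (17.9%). Of their 10 EV peaks, 7 were overlapped by KD (70%, interval 34.8 to 93.3), and KD covered 0.859 times the EV length. Of 104 FOX, SOX, TBX, GATA, DMRT and OLIG genes, 42 had an EV peak (40.4%) and 37 a KD peak (35.6%). Of their EV peaks 54.4% were overlapped (31 of 57, interval 40.7 to 67.6), and the KD length was 0.648 times that of EV. Below a −log10 p of 4, 3 of 16 of these EV peaks were overlapped (interval 4.05 to 45.6). At least 10% of the body was covered at 5 HOX genes in each list (12.8%). It was covered to that share at 18 of these 104 genes in EV and 17 in KD (17.3% and 16.3%). The intervals of the 56 members overlap those of these groups, and no difference between them was tested.

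**Figure D4:**
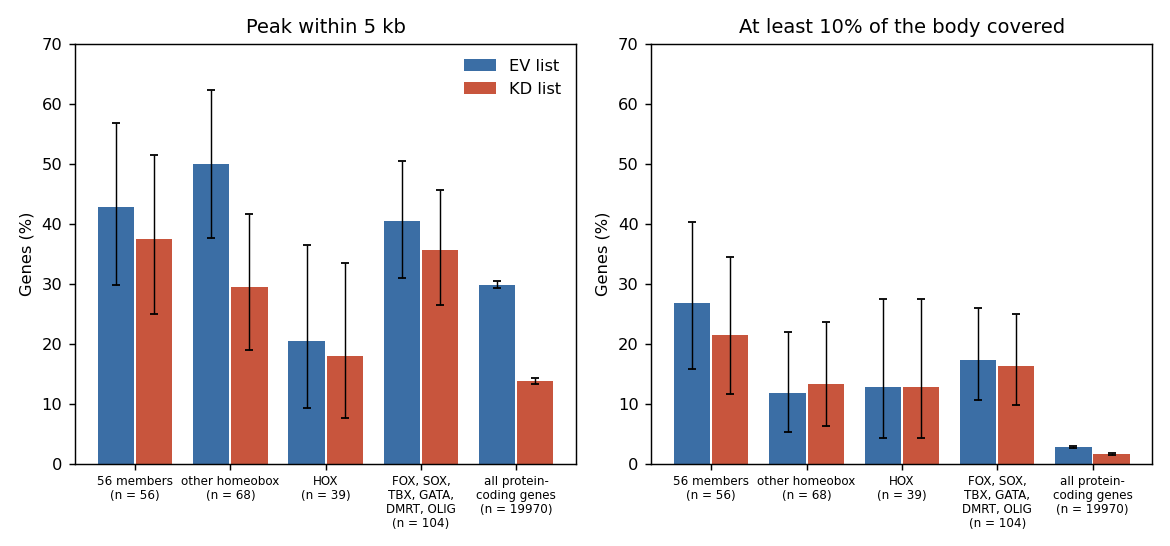
Percent of genes with a peak within 5 kb (left) and with at least 10% of the gene body under peaks (right), for the 56 members, 3 other groups of developmental regulators and all protein-coding genes. Bars are the EV and KD lists and error bars exact 95% intervals over genes. The members have 26.8% in EV and 21.4% in KD on the right, and all genes 2.76% and 1.55%.

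The list without a genotype in its name had 8 peaks in the windows of 6 members (10.7%, interval 4.03 to 21.9), against 8.37% of all protein-coding genes. These were LHX8, SIX3, IRX1, NKX2-2, NKX3-2 and GSX1, and each of them also had an EV peak in its window. Of the 44 members with a body under 20 kb, 5 had a peak in this list (11.4%, interval 3.79 to 24.6). The background among protein-coding genes under 20 kb was 3.64%. IRX1 and SIX3 had at least 10% of the body covered, 22.2% and 11.1%, and these 2 members are 3.57% of the 56, against 0.776% of all genes. The 8 peaks had a −log10 p from 3.45 to 4.66, with a median of 3.85 against 3.84 for the peaks of all protein-coding genes in that list. Of them, 3 overlapped an EV peak, at LHX8, IRX1 and NKX2-2 (37.5%, against 25.9% over all protein-coding genes), and 1 a KD peak, at NKX2-2 (12.5%, against 16.3%). All 3 lists had a peak in the window of 4 members, SIX3, IRX1, NKX2-2 and NKX3-2 (7.14%, against 3.62% of all protein-coding genes). These are 4 of the 18 members with both EV and KD peaks. Among the 2374 protein-coding genes with both, 723 also had a peak in this list. SIX6, OTX1, ISL2 and NKX2-1 were among the members with both that had none in it.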

How the data were processed

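H3K9me3 ChIP-seq peak lists of HEK293T cells were analysed, with 1 library per group. Reads were aligned with Bowtie2 and peaks called with MACS2 against GRCh38, as the submitters' processing notes record. The sources used here do not state tool versions, calling options, controls or filters. Fold enrichment is a linear ratio to the background that the peak caller modelled, as deposited. The significance values, −log10 p and −log10 q, were also deposited by the authors, and the lowest −log10 q is 1.01 in EV and in KD. The files hold no read counts, so depth is unknown.

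The EV and KD lists were matched by name, and the list whose name gives no genotype was assigned to no group. Positions count from 1. Gene bodies and promoters came from RefSeq tables of GRCh38.p14. No genome sequence or exon annotation was used, so exon, intron and repeat context is not given. Overlap meant at least 1 bp. Covered bases were computed with Python 3.11.15, numpy 2.4.6 and pandas 2.3.3, and intervals with scipy 1.17.1, at 95% confidence. Counts and covered bases in 19970 gene windows equalled those of bedtools 2.31.1 on simulated data. Plots used matplotlib 3.10.9.

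The members, the comparison lists and the measures were chosen with earlier results of these data known, and no test was run. All members with a peak could be named, with most detail for those with peaks in both lists, those with a KD peak only and the 5 with the largest EV share. Promoters shown are those under a peak in most lists, then by EV −log10 p. Backgrounds include the members. Settings varied were the flank, peak strength, peak number, merging, the covered share and the overlap.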

Additional observations from a re-analysis of the deposited data

Results flagged for a closer look

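The list without a genotype in its name enters no comparison between conditions, and it held peaks at the members: 8 peaks in the windows of 6 members. It has no control list of its own to set them against. Its share of members was 10.7%, against 8.37% of all protein-coding genes. Among genes with a body under 20 kb it was 11.4% of members (5 of 44, interval 3.79 to 24.6), against 3.64% of all such genes. The difference was not tested.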

How the results depend on the processing

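Of 42 values from 9 alternative settings over 7 results, 29 stayed within 1.5 times the reported count or within the reported interval. The 13 others are as follows. They include each alternative value of the covered length, because for that ratio any change from the reported value was counted. Members with an EV peak numbered 13 with a fold enrichment of at least 3 (17.6% of all protein-coding genes had one) and 13 with the EV list cut to the size of the KD list (17.2%). Members with at least 10% of the body covered in EV numbered 9 with a −log10 q of at least 2, 6 with a fold enrichment of at least 3 and 7 with equal peak numbers, where all protein-coding genes had 1.95%, 1.39% and 1.55%. The share of KD member peaks overlapped by EV was 33.3% with a fold enrichment of at least 3 and 35.3% with equal peak numbers, against 57.1% and 63.9% at all genes. Covered length in KD relative to EV, reported as 0.728, was 0.798 without a flank and 0.682 with a flank of 10 kb. It was 0.906 with a −log10 q of at least 2 and 0.715 with peaks within 3 kb merged. It passed 1 with a fold enrichment of at least 3 (1.31) and with equal peak numbers (1.44). Those cuts remove more EV than KD peaks, and the scaling of the fold in each list is not known. The share of EV member peaks overlapped by KD lay between 47.2% and 64.7% under its alternatives. The share at all genes moved from 28.0% to 29.2% with a −log10 q of at least 2. It was 34.2% with a fold enrichment of at least 3 and 49.8% with equal peak numbers. No paired analysis was possible because each group has 1 library and no result comes from a test.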
